A study of Mus musculus with 12 samples.

Results

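T-box transcription factors are described here through 9 genes, Eomes, T, Tbx3, Tbx6, Tbx20, Tbx1, Tbx2, Tbx4 and Tbx5. Each was taken as the assembled locus that carries the gene's name and matches or shares a splice junction with an annotated transcript. Where a name had several such loci, the locus with the most counts was used. All 9 were found, and 8 of the 9 passed the expression filter, a mean above 0.1 FPKM (fragments scaled to exon length and library size) in at least 1 of the 3 groups. In the whole series 17938 loci passed.

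The libraries hold poly(A) RNA of mouse cells of the Eomes EGFP embryonic stem cell (ESC) line, labelled C57BL/6, in 3 groups of 4. The groups were undifferentiated ESCs at day 0, and the Eomes-negative (Eo−) and Eomes-positive (Eo+) fractions sorted by GFP at day 3 of hanging-drop embryoid body culture. All 3 groups carry the same reporter, a cassette placed at the start site of the endogenous Eomes gene, so the line is a single engineered line and Eomes is the gene that defined both fractions. The ESCs were grown on mouse embryonic fibroblast feeders. Libraries are numbered 1, 2, 5 and 6 in every group, after 4 differentiation sets, and values are listed in that order below.

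T-box factors bind DNA through a shared domain that recognises a short conserved element, and they act as activators or repressors of lineage genes. At gastrulation Eomes and T (Brachyury) work in the primitive streak. Eomes is required for definitive endoderm and for mesoderm to leave the streak, and T for posterior mesoderm and the notochord. Tbx6 directs paraxial mesoderm, Tbx20 and Tbx5 are cardiac factors, Tbx2 is a repressor in the developing heart, Tbx1 acts in pharyngeal mesoderm, Tbx4 in hindlimb and allantois, and Tbx3 is used in ESC self-renewal as well as in heart and limb. Nodal and Wnt signals lie upstream of Eomes and T.

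The promoters of Eomes, T and Tbx6 are shown because these 3 members were higher than in ESCs in both day 3 fractions, and because the reporter cassette lies at the start of Eomes. They come from RefSeq (GRCm38.p6, the same build as mm10), which had a promoter window of 300 bases for 6 of the 9 members, and none for Tbx2, Tbx3 or Tbx5. Each window runs from 250 bases before to 50 bases after the annotated start. Capitals mark matches to the letters searched on both strands. For T-box factors the half-site GGTGTGA was searched. For the TCF/LEF factors of the Wnt pathway CTTTGAA was searched, as was the form CTTTGAT. For the Nodal partner FoxH1 the letters were AATNCACA. The letters of the TATA box were TATAAA, and those of the last motif, the CCAAT box, are its name.
Eomes (chr9:118477939-118478238, plus strand): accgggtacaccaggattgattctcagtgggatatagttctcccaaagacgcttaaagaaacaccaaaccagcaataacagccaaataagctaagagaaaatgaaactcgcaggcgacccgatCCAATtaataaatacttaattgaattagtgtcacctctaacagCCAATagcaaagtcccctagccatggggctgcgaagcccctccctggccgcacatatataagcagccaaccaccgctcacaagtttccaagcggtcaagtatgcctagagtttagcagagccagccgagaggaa
T (chr17:8434173-8434472, plus strand): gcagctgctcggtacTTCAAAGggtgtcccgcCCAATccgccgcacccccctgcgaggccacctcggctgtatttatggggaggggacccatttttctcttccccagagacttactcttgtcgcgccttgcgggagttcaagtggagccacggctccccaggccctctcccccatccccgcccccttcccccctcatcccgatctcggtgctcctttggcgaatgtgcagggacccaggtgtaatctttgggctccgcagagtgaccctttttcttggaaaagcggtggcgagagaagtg
Tbx6 (chr7:126781233-126781532, plus strand): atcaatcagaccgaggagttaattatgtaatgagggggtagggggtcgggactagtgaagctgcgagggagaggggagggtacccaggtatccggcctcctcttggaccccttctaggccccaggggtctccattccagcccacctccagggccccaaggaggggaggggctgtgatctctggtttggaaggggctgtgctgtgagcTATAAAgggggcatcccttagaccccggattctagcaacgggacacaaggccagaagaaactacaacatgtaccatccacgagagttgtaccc
In the T window, CTTTGAA was found on the minus strand, 235 to 229 bases before the start, and 5.14% of all 32851 promoter windows hold these letters. CCAAT lay 218 to 214 bases before the start of T, and 127 to 123 and 84 to 80 bases before that of Eomes (37.4% of all windows hold it). TATAAA lay 43 to 38 bases before the start of Tbx6 and, in a window not printed, 85 to 80 bases before that of Tbx4 on the minus strand (13.6% of all windows). The T-box half-site, held by 3.98% of all windows, matched 0 of the 7 windows of members, as did CTTTGAT (3.73%) and the FoxH1 letters (3.6%). The 3 windows contained 47.3% (Eomes), 61.7% (T) and 57.7% (Tbx6) G and C.

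Library depth was high and even. Total locus counts ranged from 648413022 to 837308168, and 3 counts, taken as a detection floor, came to at most 0.00485 CPM. CPM are counts scaled to library size, with TMM (trimmed mean of M-values) factors between libraries. Counts from 4 to 23 were even numbers in 55.0% to 64.7% of cases per library, so these counts may not all come from independent reads. A window that opens on an even number can itself favour even counts, and no expected share was computed. The floor covers counting error only. Marker genes matched the group labels. The 7 naive pluripotency markers summed to 2026 to 2628 CPM in ESCs, 291 to 405 CPM in Eo− and 125 to 213 CPM in Eo+ libraries. The 7 primitive streak markers without T-box genes summed to 35.6 to 149 CPM, 98.4 to 219 CPM and 1092 to 2040 CPM. The 10 fibroblast (feeder) markers summed to 133 to 348 CPM in ESC libraries and to 31.5 to 78.4 CPM at day 3. Of the 9 feeder markers tested, 9 were lower in Eo+ than in ESC libraries, where 36.1% of all tested loci were. In Eo− vs ESC 7 were lower and 1 higher (31.3% and 30.9% of all loci). The higher one was Thy1 (0.62, adjusted p = 0.0148, limma), and Dcn was not called (−0.36, adjusted p = 0.366). The 5 blood markers summed to 130 CPM in the Eo− library and 103 CPM in the Eo+ library of set 1, against 7.58 to 15.2 CPM and 18.6 to 58.7 CPM in the other sets, so the day 3 libraries of set 1 stood apart. The 7 visceral endoderm markers summed to 11.6 CPM in Eo− and 59.8 CPM in Eo+ of set 1, against 2.69 to 3.48 CPM and 3.52 to 33.4 CPM. The 6 trophoblast markers summed to 51.1 to 65.4 CPM (ESC), 17.7 to 78.5 CPM (Eo−) and 50.9 to 160.2 CPM (Eo+), a sum of opposite changes, since Tfap2c fell by 2.77 on the log2 scale in Eo+ vs ESC and Hand1 rose by 4.68 (adjusted p = 2.74e-07 and 0.000341, limma). Of the 6 neural markers 5 were tested, and relative to ESC 1, Otx2, was higher and 4 were lower in each fraction. Over all loci 35.8% were higher and 36.1% lower in Eo+, and 30.9% and 31.3% in Eo−.

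**Figure D1:**
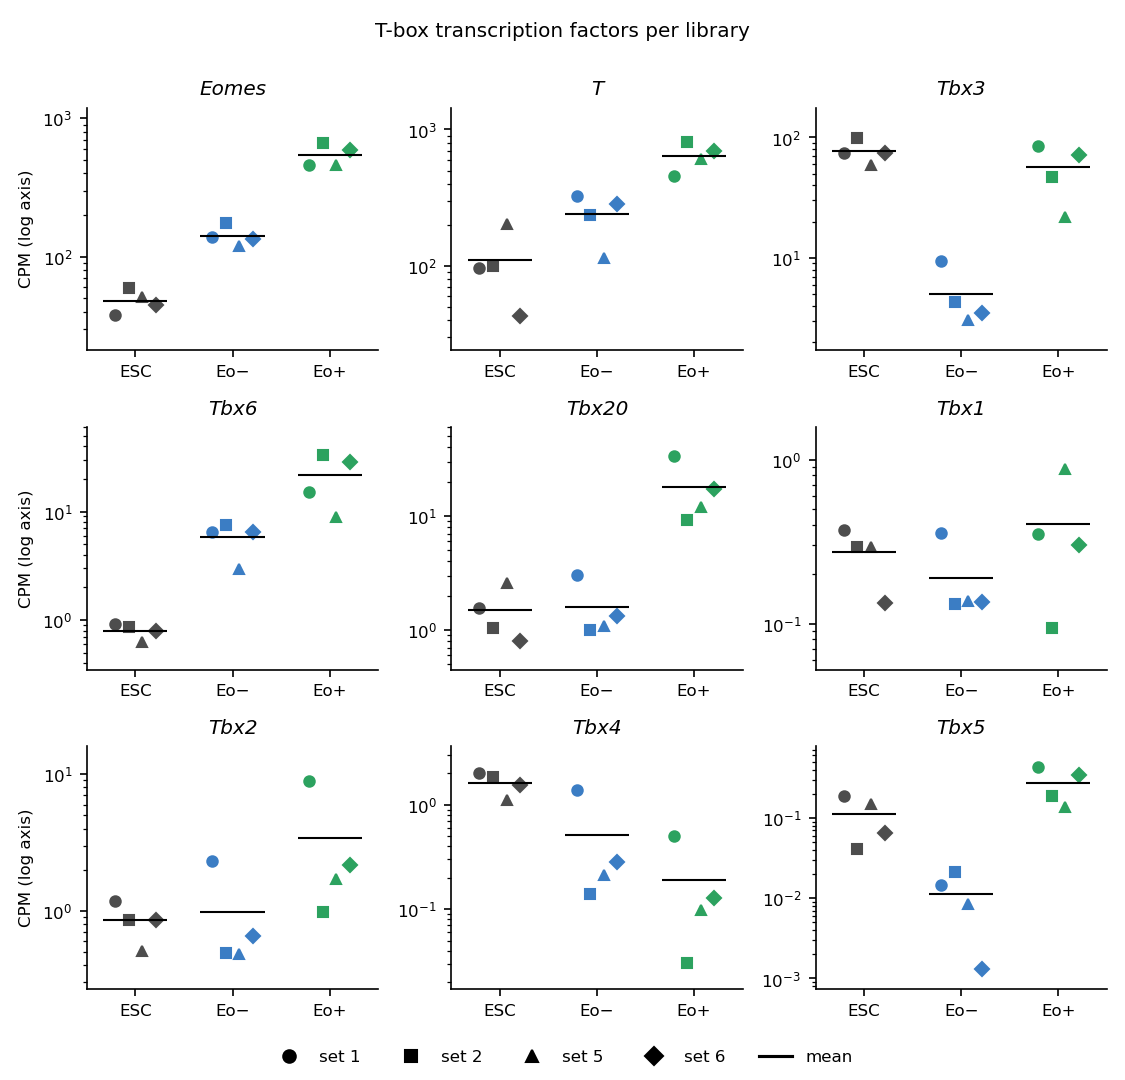
CPM of the 9 T-box members in each library on a log axis, by group, with marker shape for the differentiation set and a line at the mean of 4 libraries. Eomes, T and Tbx6 step up from ESC to Eo− to Eo+ in their means, Tbx3 is lowest in Eo−, and Tbx20 is highest in Eo+.

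Eomes was measured first because it was the sorted gene. Its level in ESCs was 37.8, 59.4, 50.8 and 44.8 CPM in sets 1, 2, 5 and 6. In Eo− cells it was 139, 174, 120.3 and 133 CPM, and in Eo+ cells 463, 665, 463 and 595 CPM. No 2 groups overlapped. Means were 48.2 ± 9.15, 142 ± 23.1 and 547 ± 101 CPM (SD, n = 4 each), so Eo− cells held 25.9% of the Eo+ level and ESCs 8.82%. The labels therefore fit the transcript in all 12 libraries, and the Eo− fraction was low in Eomes, not free of it. In bulk RNA, fewer Eomes-expressing cells and less Eomes RNA per cell cannot be told apart. Eomes rose by 3.51 ± 0.16 on the log2 scale (SE) in Eo+ and by 1.56 ± 0.17 in Eo− relative to ESC (adjusted p = 8.28e-10 and 2.98e-06, limma). The log2 fold change between the fractions, 1.94 ± 0.15, follows from the sort and is given as a description. Within each set the Eo+/Eo− ratio of Eomes was 3.33, 3.82, 3.85 and 4.46, the narrowest spread of ratios among the 9 members (SD of log2 ratios 0.171). The locus lies at chr9:118477475-118488290 on the plus strand (XLOC_071772), with 10 assembled transcripts, 4 of which match annotated ones.

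T was the most abundant member in all 3 groups when levels were compared per exon length. Its CPM was 96.1, 99.3, 203 and 43.4 in ESCs, 323, 237, 114 and 282 in Eo− and 458, 804, 611 and 701 in Eo+ libraries. The ESC and Eo− ranges overlapped through ESC library 5 and Eo− library 5, whereas every Eo+ library lay above all others. T rose by 2.71 ± 0.39 in Eo+ vs ESC (log2 ± SE, adjusted p = 2.4e-05) and by 1.5 ± 0.37 in Eo+ vs Eo− (adjusted p = 0.0045). The rise in Eo− vs ESC, 1.21 ± 0.40, had an adjusted p of 0.0168 but was past the threshold in 20 of 25 alternative analyses, with adjusted p from 0.000438 to 0.144. It was lost without ESC library 6 (0.84, adjusted p = 0.0561) and without Eo− library 1 (1.03, adjusted p = 0.0504), and without all libraries of set 1, 2 or 6 (adjusted p = 0.0811, 0.0703 and 0.144). Without set 5 it was 1.89 (adjusted p = 0.000438). Within sets, T was higher in Eo+ than in Eo− in 4 of 4 sets, by 1.42, 3.39, 5.37 and 2.48 times. The locus lies at chr17:8432187-8442496 on the plus strand (XLOC_029559).

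Among ESC libraries T varied more than the other abundant members did. The highest ESC library held 4.68 times the lowest, against 1.57 times for Eomes and 1.65 times for Tbx3. All 7 streak marker genes shared the extremes of T in these ESC libraries, highest in library 5 and lowest in library 6, and 2 of the 7, Fgf8 and Wnt3, had its full order. Fgf8, a streak growth factor, was 30.6, 49.4, 67.3 and 19.5 CPM, and Wnt3, the Wnt ligand that starts the streak, was 11.8, 19.4, 25.5 and 6.85 CPM, both with library 2 above library 1 as for T. In the other 5 genes library 1 lay above library 2, as in Mixl1, a streak homeobox gene, at 19.3, 9.09, 28.4 and 4.10 CPM. Eomes did not follow this order, with its highest ESC value in library 2. These orders rest on 4 libraries and are a description.

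Tbx6 had the largest fold change of the members in Eo+ vs ESC. It was 0.914, 0.858, 0.627 and 0.790 CPM in ESCs, 6.45, 7.48, 2.96 and 6.43 CPM in Eo− and 15.2, 33.3, 8.88 and 28.7 CPM in Eo+ libraries. All 3 groups were separate, with the gap between the highest Eo− and the lowest Eo+ library the smallest. Tbx6 rose by 4.58 ± 0.56 in Eo+ vs ESC (log2 ± SE, adjusted p = 5.86e-06), by 2.81 ± 0.61 in Eo− vs ESC (adjusted p = 0.00126) and by 1.77 ± 0.41 in Eo+ vs Eo− (adjusted p = 0.00284). In Eo+ vs ESC, 194 of the 17938 tested loci had a larger log2 fold change, and in Eo− vs ESC 253 had. The locus (XLOC_063054) lies at chr7:126781483-126785560 on the plus strand.

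Tbx3 ran differently from these 3 genes. In ESCs it was 74.6, 98.3, 59.6 and 74.5 CPM, in Eo− cells 9.38, 4.27, 3.08 and 3.51 CPM and in Eo+ cells 85.2, 47.1, 21.9 and 71.9 CPM. Every Eo− library lay below every library of the other groups, while ESC and Eo+ ranges overlapped. Tbx3 fell by 4.04 on the log2 scale (SE 0.50) in Eo− vs ESC (adjusted p = 1.31e-05) and rose by 3.45 ± 0.51 in Eo+ vs Eo− (adjusted p = 0.000114). Of the 17938 tested loci, 121 had a larger rise between the fractions. In Eo+ vs ESC the log2 fold change was −0.59 (95% interval −1.30 to 0.12, adjusted p = 0.122). It passed the threshold without Eo+ library 1, at −0.85 with an adjusted p of 0.0288. Tbx3 was higher in Eo+ than Eo− in 4 of 4 sets, by 9.09, 11.0, 7.11 and 20.5 times. The summed feeder markers were, like Tbx3, lower in Eo− (31.5 to 41.7 CPM) than in ESC libraries, although Thy1 of that list rose. In Eo+ libraries they summed to 40.1 to 78.4 CPM, also below ESC, whereas Tbx3 there overlapped the ESC range. Their part in the fall of Tbx3 was not tested. The locus (XLOC_053834) lies at chr5:119669835-119684724 on the plus strand.

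Tbx20 was high in Eo+ libraries and low in both other groups. It was 1.56, 1.03, 2.57 and 0.803 CPM in ESCs, 3.02, 0.997, 1.08 and 1.32 CPM in Eo− and 33.5, 9.13, 12 and 17.4 CPM in Eo+ libraries. Eo+ values were separate from both other groups, which overlapped each other. Tbx20 rose by 3.55 ± 0.51 in Eo+ vs ESC (log2 ± SE, adjusted p = 2.49e-05) and by 3.46 ± 0.50 in Eo+ vs Eo− (adjusted p = 9.11e-05). In Eo− vs ESC the log2 fold change was 0.09 ± 0.62 (adjusted p = 0.911). Between fractions 120 of the 17938 tested loci had a larger rise. Within sets the Eo+/Eo− ratio was 11.1, 9.17, 11.1 and 13.2, although the Eo+ level itself varied 3.67 times between sets. The locus (XLOC_072239) lies at chr9:24719666-24774336 on the minus strand.

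The other 4 members were low throughout. Tbx2 was 1.19, 0.853, 0.513 and 0.864 CPM in ESCs, 2.31, 0.488, 0.481 and 0.657 CPM in Eo− and 8.88, 0.977, 1.72 and 2.18 CPM in Eo+ libraries, with set 1 highest in each group. Tbx2 was called higher in Eo+ vs ESC (1.55 ± 0.64, adjusted p = 0.0429), with ranges that overlap. That call held in 13 of 25 alternative analyses. Without Eo+ library 1, it was 0.90 with an adjusted p of 0.11. In Eo+ vs Eo− its log2 fold change was 1.62 ± 0.64 (adjusted p = 0.0521), past the threshold in 7 of 25 alternative analyses. It ran from 0.97 to 2.17 when single libraries were left out, with 0.97 (adjusted p = 0.122) without Eo+ library 1. Blocking on the replicate number gave 1.69, adjusted p = 0.000917. With edgeR and DESeq2 it was 1.81 in both, with adjusted p of 0.041 and 0.0293. Tbx2 was higher in Eo+ in 4 of 4 sets, by 3.85, 2.00, 3.58 and 3.31 times.

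Tbx4 went the other way. It was 2.02, 1.86, 1.12 and 1.53 CPM in ESCs, 1.40, 0.141, 0.215 and 0.284 CPM in Eo− and 0.507, 0.0309, 0.0992 and 0.129 CPM in Eo+ libraries. Relative to ESCs it fell by 3.73 on the log2 scale in the Eo+ fraction (SE 0.74, adjusted p = 0.000429), and those ranges did not overlap. That value was −4.45 without Eo+ library 1 and −3.05 without Eo+ library 2. In Eo− cells the log2 fold change was −2.24 ± 0.60 (adjusted p = 0.0051), but Eo− library 1 reached into the ESC range, the value without it was −2.96, and edgeR gave an adjusted p of 0.079. Eo+ vs Eo− stood at −1.49 ± 0.81 (adjusted p = 0.147), and ran from −2.21 to −0.77 when single libraries were left out, past the threshold in 0 of 12 cases. It passed in 2 of 25 alternative analyses, both with the replicate block, at −1.43 (adjusted p = 0.0408) over all libraries and at −1.42 (adjusted p = 0.000454) in the libraries of both groups only. Tbx4 was lower in Eo+ in 4 of 4 sets. Tbx2 and Tbx4 lie next to each other on chromosome 11, at 85826694 to 85842021 and 85886422 to 85916099 on the plus strand, with 44400 bp between the loci, and both were highest in set 1 at day 3 although their group means ran in opposite directions. The summed feeder markers, higher in ESC libraries than at day 3, moved with the fall of Tbx4, and their part in it was not tested.

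Tbx1 did not pass in any comparison. It was 0.370, 0.294, 0.293 and 0.133 CPM in ESCs, 0.357, 0.131, 0.137 and 0.136 CPM in Eo− and 0.353, 0.0940, 0.877 and 0.302 CPM in Eo+ libraries, with overlap throughout. Relative to ESC its log2 fold change was 0.23 in Eo+ (95% interval −1.0 to 1.45) and −0.58 in Eo− (−1.89 to 0.74), and between the fractions it was 0.80 (−0.49 to 2.09). Adjusted p was 0.736, 0.426 and 0.288. Without Eo+ library 2 the difference between the fractions was 1.40 with an adjusted p of 0.0307.

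Tbx5, a factor of the first heart field, failed the filter, with a mean of 0.0681 FPKM in Eo+, its highest group. It had 150, 30, 110 and 42 counts in ESC, 12, 16, 6 and 1 counts in Eo− and 327, 138, 94 and 210 counts in Eo+ libraries. Every Eo− library lay below every library of the other groups, the same order of means (Eo+, ESC, Eo−) being found at 0.274, 0.111 and 0.0114 CPM. In exact two-sided permutation tests of log2(CPM + 1), p was 0.0286 for Eo+ vs Eo− and 0.0286 for Eo− vs ESC, the smallest that 4 against 4 allows, and 0.143 for Eo+ vs ESC. Tbx5 lies 149938 bp from Tbx3 on chromosome 5 (119834663 to 119885220, plus strand), and both had their lowest values in Eo−.

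**Figure D2:**
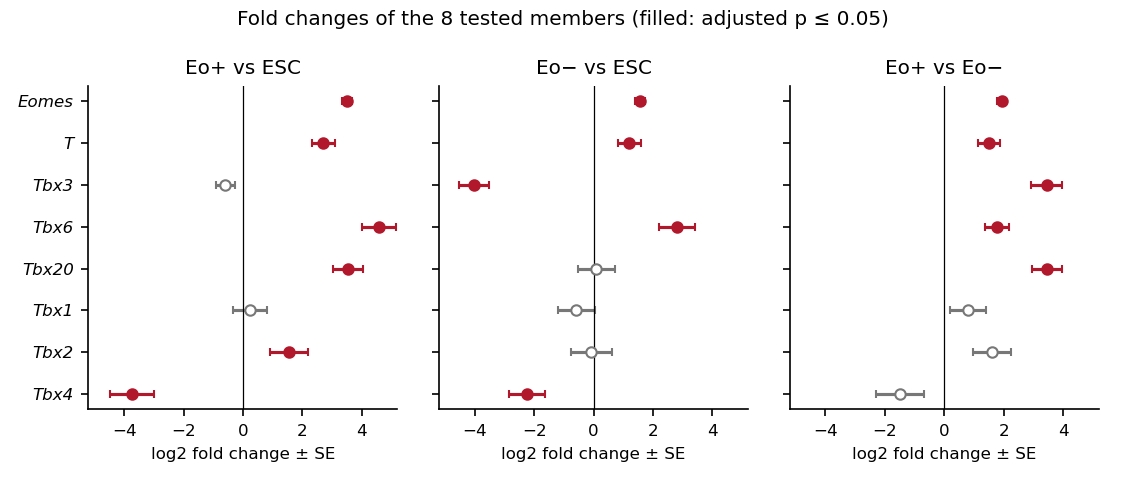
Log2 fold changes with their standard errors for the 8 tested members in the 3 comparisons (limma). Filled points have an adjusted p of at most 0.05. Tbx3 changes side between comparisons, from −4.04 in Eo− vs ESC to 3.45 in Eo+ vs Eo−.

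Counted over the members, 6 of 8 tested genes were called in Eo+ vs ESC, 5 higher and 1 lower. The background over all tested loci was 71.9% (35.8% higher, 36.1% lower). In Eo− vs ESC 5 of 8 were called, 3 higher and 2 lower, against 62.2% of all loci, 30.9% higher and 31.3% lower. In Eo+ vs Eo− 5 of 8 were called, all 5 higher, against 47.7% of all loci, 23.0% higher and 24.6% lower. With the replicate block 7 of 8 were called there, against 53.3% of all loci. The median log2 fold change of the members, in the same order of comparisons, was 2.13, 0.01 and 1.70. Over all loci it was 0.00, 0.02 and −0.01. Without Eomes, the sorted gene, 4 of 7 members were called in Eo+ vs Eo−, all 4 higher, with a median of 1.62. In Eo+ vs ESC 4 of these 7 were higher and 1 lower, with a median of 1.55. In Eo− vs ESC 2 were higher and 2 lower, with a median of −0.07. Both comparisons with ESC share the same 4 ESC libraries.

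**Figure D3:**
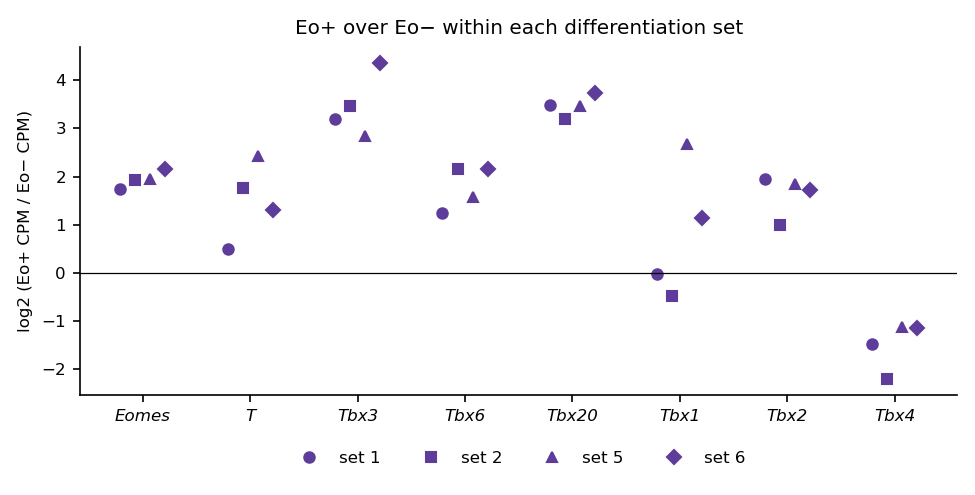
Log2 ratio of Eo+ to Eo− CPM within each of the 4 differentiation sets for the 8 tested members. Eomes, T, Tbx3, Tbx6, Tbx20 and Tbx2 lie above 0 in 4 of 4 sets, Tbx4 lies below 0 in 4 of 4, and Tbx1 lies on both sides.

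Per exon length, the order of the members changed between groups. In ESCs T led at 26.3 FPKM, followed by Tbx3 (13.7) and Eomes (7.03), and T and Tbx3 did not separate. Tbx4 (0.468) and Tbx6 (0.442) came next and overlapped, and Tbx20, Tbx2, Tbx1 and Tbx5 were at or below 0.185 FPKM. In Eo− cells the order was T (56.8), Eomes (20.7), Tbx6 (3.23) and Tbx3 (0.905), where Tbx6 and Tbx3 overlapped. In Eo+ cells it was T (153), Eomes (79.7), Tbx6 (11.9), Tbx3 (10.1) and Tbx20 (2.23), where each of the last 3 overlapped its neighbour. Among the 17938 tested loci, 262 had a higher mean FPKM than T in Eo+ cells, against 806 in Eo− cells and 2000 in ESCs. For Eomes these numbers were 583, 2382 and 5289.

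The 17 T-box genes of the mouse set examined, the 9 members and Tbr1, Tbx10, Tbx15, Tbx18, Tbx19, Tbx21, Tbx22 and Mga, summed to 54.2 ± 15.0 FPKM in ESCs, 85.7 ± 24.4 FPKM in Eo− and 261 ± 51.6 FPKM in Eo+ libraries (SD, n = 4 each). Eomes and T together made up 58.8% of this sum in ESCs (45.4% to 76.2% per library), 90.1% in Eo− (87.8% to 91.5%) and 89.0% in Eo+ (84.2% to 93.6%). Tbx3 held 27% ± 9.12 in ESCs, 1.0% ± 0.39 in Eo− and 4.03% ± 2.45 in Eo+ (SD). Mga, a T-box and basic helix-loop-helix repressor, held 9.33% ± 3.23, 4.01% ± 1.69 and 1.22% ± 0.25. The ratio of T to Eomes per length was 4.14, 2.73, 6.51 and 1.58 in ESCs, 3.79, 2.21, 1.54 and 3.45 in Eo− and 1.61, 1.97, 2.15 and 1.92 in Eo+ libraries, with the narrowest range in Eo+ and overlap between all groups.

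**Figure D4:**
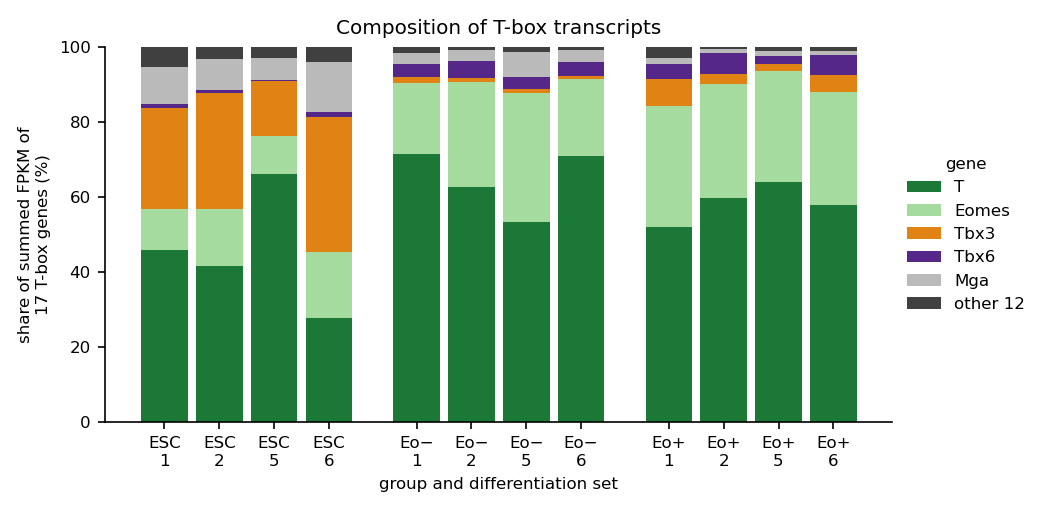
Share of each gene in the summed FPKM of 17 T-box genes for each library, as stacked bars from 0 to 100%. Tbx3 takes 14.6% to 35.9% in ESC libraries and at most 7.28% at day 3, where T and Eomes fill most of each bar.

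Of the 8 T-box genes that are not members, 5 passed the filter and all 5 were called against ESC in both fractions, where 71.9% (Eo+) and 62.2% (Eo−) of all loci were. Tbr1 passed only through Eo+ (0.159 FPKM, against 0.0325 in ESC and 0.0194 in Eo−). Tbx15 and Tbx18 passed only through ESC (0.594 and 0.111 FPKM). The filter thus favoured high values in those groups, and these counts are a description. In Eo+ cells 1 was higher and 4 were lower, and in Eo− cells 0 were higher and 5 lower. Between the fractions 1 was higher and 1 lower (23.0% and 24.6% of all loci). Tbr1, a neuronal T-box gene close to Eomes in sequence, was 0.179 ± 0.043 (ESC), 0.107 ± 0.034 (Eo−) and 0.872 ± 0.033 CPM (Eo+; SD, n = 4 each). It rose by 3.08 ± 0.25 in Eo+ vs Eo− (log2 ± SE, adjusted p = 9.84e-07), Eo+ being the group through which it passed the filter. Tbx21, the T-bet factor of lymphocytes, was 0.869 ± 0.147, 0.535 ± 0.133 and 0.120 ± 0.029 CPM, and fell by 2.17 on the log2 scale in Eo+ vs Eo− (SE 0.29, adjusted p = 5.64e-05). Mga was 127 ± 10.2 CPM in ESCs and 84.8 ± 8.75 and 83.1 ± 3.14 CPM in Eo− and Eo+, with no call between fractions (log2 fold change −0.02, adjusted p = 0.832).

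Tbx15 and Tbx18, known from mesenchyme, were lower at day 3, and both had passed the filter only through ESC. Tbx15 was 3.85, 1.40, 2.78 and 0.868 CPM in ESC libraries and at most 0.218 CPM at day 3. Tbx18 was 0.833, 0.308, 0.547 and 0.427 CPM in ESC libraries and at most 0.112 CPM at day 3. The feeder markers summed to 348, 149, 256 and 133 CPM in the same ESC libraries, the order of Tbx15, and their part in these values was not tested. Tbx10, Tbx19 and Tbx22 failed the filter, with at most 0.310 CPM in any library.

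Upstream signals were measured with a list of 10 genes. In Eo+ vs Eo−, 7 were higher and 1 lower, where 23.0% and 24.6% of all tested loci were. Wnt3 rose by 2.00 ± 0.32 (log2 ± SE, from 18.7 to 73.3 CPM, adjusted p = 0.000199) and Tdgf1, the Nodal coreceptor, by 1.62 ± 0.18 (from 407 to 1299 CPM, adjusted p = 1.37e-05). Nodal, the ligand, fell by 0.78 on the log2 scale (SE 0.15, from 83.5 to 49.6 CPM, adjusted p = 0.000682). In Eo− vs ESC 4 were higher and 4 lower (30.9% and 31.3% of all loci). Tcf7 and Foxh1, the DNA-binding partners of Wnt and Nodal signals, rose by 0.89 ± 0.06 and 0.81 ± 0.09, whereas Tdgf1 and Nodal fell by 1.15 and 0.36 on the log2 scale (adjusted p = 1.16e-07, 6.26e-06, 0.00012 and 0.0347, limma).

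Among 13 genes known as targets of Eomes, T or Tbx6, 11 were called higher and 0 lower between the Eo+ and Eo− fractions (23.0% and 24.6% of all loci). Their median log2 fold change was 3.62, against −0.01 over all loci. Lhx1, a homeobox gene of the anterior streak, rose by 4.69 ± 0.30 (from 23.4 to 602 CPM, adjusted p = 1.65e-07). Mesp1, which marks nascent cardiac mesoderm, rose by 4.57 ± 0.63 (from 6.03 to 139 CPM, adjusted p = 6.58e-05). The 2 genes not called were Msgn1 and Wnt3a, named here after their values were seen. Msgn1, a Tbx6-dependent factor of presomitic mesoderm, was 25.5, 14.4, 4.55 and 22.5 CPM in Eo− and 16.7, 17.8, 7.67 and 23.1 CPM in Eo+ libraries (log2 fold change 0.09, adjusted p = 0.897). Wnt3a gave 1.33 with an adjusted p of 0.0633. The 5 definitive endoderm markers summed to 38.5 to 65.7 CPM in Eo− and 491 to 750.2 CPM in Eo+ libraries. Of these markers, Sox17, Foxa2 and Cer1 are also among the 13 target genes. The 5 cardiac markers summed to 5.09 to 18.6 and 198 to 399 CPM. Endoderm and cardiac genes thus moved with the members, and their part in the members' values was not tested.

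Of 9 partners and corepressors, 6 were higher and 1 lower in Eo+ than in Eo− cells (23.0% and 24.6% of all loci). Gata4, a cardiac and endodermal partner of T-box factors, rose by 4.78 ± 0.34 (from 6.09 to 155 CPM, adjusted p = 3.99e-07), and Nkx2-5, the cardiac homeobox partner of Tbx5 and Tbx20, by 2.93 ± 0.45 (from 0.164 to 1.39 CPM, adjusted p = 0.000139). In ESCs Nkx2-5 was 0.925 CPM, so it fell by 2.47 on the log2 scale in Eo− vs ESC (adjusted p = 0.00035) and stood at 0.46 in Eo+ vs ESC (adjusted p = 0.245). Ripply1, a corepressor that binds T-box factors, fell by 1.39 on the log2 scale (SE 0.30, from 2.18 to 0.825 CPM, adjusted p = 0.00184). Its paralogues Ripply3 and Ripply2 rose in that comparison, by 1.63 and 0.82 (adjusted p = 8.21e-05 and 0.0242). Ripply1 was highest in ESCs, at 10.3 CPM. Of the partners in Eo− vs ESC, 2 were higher and 3 lower (30.9% and 31.3% of all loci). Isl1, a factor of cardiac progenitors, rose by 2.48 ± 0.43, and Ripply1 and Tle1, a Groucho corepressor, fell by 2.24 and 0.35 on the log2 scale (adjusted p = 0.000216, 2.21e-06 and 0.00545, limma).

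**Figure D5:**
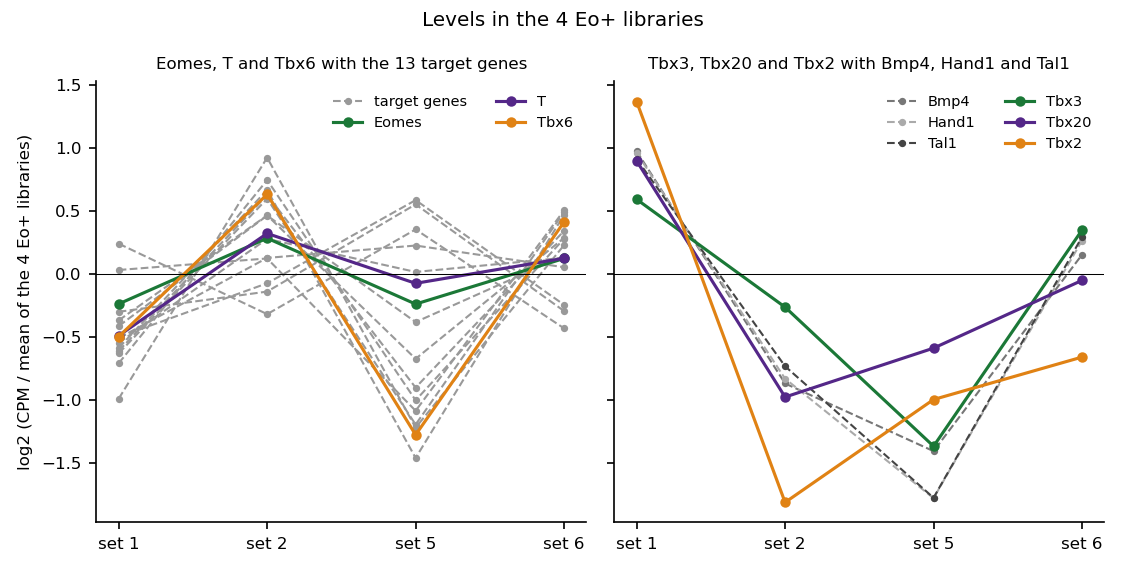
Log2 of CPM over the mean of the 4 Eo+ libraries, by differentiation set, for T-box members (solid) and other genes (dashed), with all 13 target genes in grey on the left. Lines only join the values of a gene. Eomes, T and Tbx6 peak in set 2, as do 8 of the 13 target genes, while 4 peak in set 5 and 1 in set 6, and Tbx3, Tbx20 and Tbx2 peak in set 1 with Bmp4, Hand1 and Tal1.

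The 4 Eo+ libraries differed among themselves, and the members fell into different orders. Tbx6 ran from 33.3 CPM in set 2 through 28.7 and 15.2 CPM in sets 6 and 1 to 8.88 CPM in set 5. That order was shared by 6 of the 13 target genes listed above, among them Mesp1 (92.7, 221, 50.6 and 193 CPM), Snai1, a repressor of E-cadherin (70.6, 165, 47.7 and 154 CPM), and Dll1, a Notch ligand (16.8, 46.1, 13.7 and 33.4 CPM). The other 7 targets had other orders. Foxa2, Sox17 and Cer1, genes of endoderm, and Fgf8 were highest in set 5, with Cer1 at 192, 258, 407 and 229 CPM, Msgn1 was highest in set 6, and Lhx1 and Gsc were highest in set 2 but lowest in set 1. Eomes and T were also highest in set 2, followed by set 6. Tbx3 had another order, 85.2 CPM in set 1, then sets 6, 2 and 5, which was also that of Bmp4, a signal of posterior and extraembryonic mesoderm (98.2, 27.3, 18.8 and 55.5 CPM), of Hand1 (125, 36.1, 18.7 and 77.3 CPM) and of Tal1, a blood and vessel regulator (87.1, 27.8, 13.5 and 56.7 CPM). These 3 genes were chosen after their values were seen. Tbx20 and Tbx2 were likewise highest in set 1, followed by set 6. Set 1 also held the most blood and visceral endoderm marker RNA, whose part in these values was not tested. Tal1 is itself 1 of the 5 blood markers and made up 87.1 of their 103 CPM in Eo+ of set 1. Between the fractions Tal1 was the 1 blood marker called higher, and Hba-x and Klf1 were called lower (23.0% and 24.6% of all loci). These orders rest on 4 libraries and carry no test.

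Without the 3 libraries of set 1, the calls for Eomes, T, Tbx3, Tbx6 and Tbx20 in Eo+ vs Eo− were kept, and Tbx2 was called at 1.51 with an adjusted p of 0.00507. In the same analysis Tbx3 was called lower in Eo+ vs ESC (−0.86, adjusted p = 0.0377), and T lost its call in Eo− vs ESC (1.03, adjusted p = 0.0811).

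Neighbouring transcripts were examined around the members. On the opposite strand, 9 loci had a 5′ end within 5000 bp of a member's 5′ end, and 8 tested lncRNA (long noncoding RNA) loci lay within 50 kb of a member. Of these 8, 7 were called in at least 1 comparison (87.5%), where 82.1% of all 3716 tested lncRNA loci were. A spliced antisense locus with up to 6 exons (XLOC_073724, chr9:118485339-118489853, minus strand) overlapped the 3′ part of Eomes. Its level was 0.820 ± 0.189 (ESC), 2.86 ± 0.27 (Eo−) and 6.38 ± 1.58 CPM (Eo+; SD, n = 4 each). Relative to ESC it rose by 2.95 ± 0.23 in Eo+ and by 1.83 ± 0.25 in Eo−, and between the fractions by 1.12 ± 0.20 (log2 ± SE, adjusted p = 9.37e-08, 2.69e-05 and 0.000411, limma). These values were 1.70%, 2.02% and 1.17% of those of Eomes. A single-exon locus on the opposite strand at the start of Eomes (XLOC_073723, chr9:118476012-118477858) reached 0.476 CPM in Eo+, and one at the start of T (XLOC_031219, chr17:8432413-8433959) 3.37 CPM, which was 0.524% of the level of T. Single-exon loci without an annotation were not in the tested classes, and how much of these antisense counts came from reads assigned to the wrong strand was not tested.

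Upstream of Eomes, Gm26975 (XLOC_073715, minus strand, 38420 bp away) ran opposite to it. Its level was 14.5 ± 5.96 (ESC), 7.09 ± 1.53 (Eo−) and 1.8 ± 0.51 CPM (Eo+; SD, n = 4 each). In Eo+ cells it fell by 2.93 on the log2 scale relative to ESC and by 2.00 relative to Eo− (adjusted p = 1.98e-05 and 0.00184, limma). Gm16702, 42139 bp from T, was 1.21 ± 0.63, 3.54 ± 0.73 and 5.14 ± 1.12 CPM, higher than ESC in both fractions, while Eo+ vs Eo− gave 0.54 ± 0.28 (adjusted p = 0.135). Beside Tbx3, Tbx3os2 was 0.370 ± 0.164 (ESC), 0.0780 ± 0.0388 (Eo−) and 0.242 ± 0.151 CPM (Eo+). It fell by 2.24 on the log2 scale in Eo− vs ESC (adjusted p = 0.00545), and Eo+ vs Eo− gave 1.57 ± 0.63 (adjusted p = 0.0551). Gm16063 and Gm16064, also beside Tbx3, were at 0.338 and 0.0918 CPM in ESCs and at most 0.114 CPM in any day 3 library. A non-annotated locus spanning Tbx3 (XLOC_053831) was higher in Eo− than in Eo+ cells, 0.841 against 0.393 CPM.

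Genes whose pattern over the 12 libraries was nearest to each member were listed by the root mean square difference of log2(CPM + 1) after centring each gene on its own mean. This distance was computed against tested loci that have a symbol and at least 1 CPM in some group, and the 5 nearest were kept. For Eomes they were Cyp4f15, Leprel1, Vwa5b1, Cap2 and Slc44a5, at 0.24 to 0.33. For T they were St3gal6, Fst, Apln, Alox15 and Fgf8, at 0.37 to 0.41, where Fst encodes follistatin, an activin antagonist, and Apln the ligand of the apelin receptor. For Tbx6 they were Grin2c, Dll3, Nkd1, Cyp4f15 and Chst7, at 0.33 to 0.39, where Dll3 encodes a Notch ligand of presomitic mesoderm and Nkd1 a Wnt feedback inhibitor. For Tbx20 they were Col14a1, Dpf3, Pcsk5, Pmp22 and Hhex, at 0.36 to 0.39, where Hhex is a homeobox gene of endoderm and blood precursors. For Tbx2 they were Hlx, Hey2, Lgals3bp, Hoxb3 and Gc, at 0.24 to 0.29.

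Tbx3 had no close match. Of its 5 nearest genes (Fbln2, Upp1, Fosl2, Lama1 and Smarcd3), the first was Fbln2, an extracellular matrix gene that is also on the feeder marker list, at 0.60, with 53.9, 2.99 and 27 CPM in ESC, Eo− and Eo+. The next, Upp1, lay at 0.90. With 0.1 added in place of 1, the number of the 5 nearest genes kept was 1 for Eomes, 4 for T, 3 for Tbx3, 1 for Tbx6, 3 for Tbx20, 3 for Tbx2 and 0 for Tbx4, so the lists of Eomes, Tbx6 and Tbx4 in particular depend on that constant.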

How the data were processed

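RNA-Seq libraries of ESCs, Eo− and Eo+ cells (4 each) were made from poly(A) RNA, stranded and paired-end. The authors aligned reads to mm10 with STAR (2.0.4 per the labels), assembled transcripts with Cufflinks and Cuffmerge 2.2.1 over Ensembl GRCm38 and counted reads per locus with HTSeq 0.6.1. The deposited raw counts are whole numbers per locus for 80012 loci. The normalized table, a signal that the authors deposited, served only as a list of loci in an alternative. Columns of other samples were 0. HTSeq's tally of non-unique alignments, 22.4% to 26.2%, entered no total.

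CPM and FPKM were computed here from the counts, TMM library sizes and summed exon lengths. Loci were tested when mean FPKM, for this filter from total counts without TMM, exceeded 0.1 in a group and the class was protein-coding, annotated lncRNA or non-annotated lncRNA of at least 2 exons and 200 bp (GENCODE biotypes), leaving 17938. limma 3.58.1 with voom (R 4.3.3, edgeR 4.0.16) fitted 1 mean per group over 12 libraries. Tests were two-sided, p-values were adjusted by Benjamini-Hochberg over all 17938 loci, with 0.05 as the largest adjusted p for a call. Adjusted p-values are from limma unless another tool is named. The scripts were tested on simulated data.

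Members, gene lists and naming rules were chosen with earlier results of these data known. From each list of other genes, the 2 largest rises and falls among called, non-overlapping genes of at least 1 CPM were named, and values of other genes are given where a sentence says why. Neighbours and nearest patterns followed the rules stated beside them.

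The numbers 1, 2, 5 and 6 come from the sample titles, and the study's methods give 4 differentiation sets, so same-numbered libraries share a set. Deviations of same-numbered libraries from their group means correlated at 0.30 to 0.62 between Eo− and Eo+, at −0.12 to 0.46 between ESC and Eo− and at −0.10 to 0.14 between ESC and Eo+. Alternatives were edgeR, DESeq2 1.42.0, library totals, other locus filters, only the groups compared, the replicate block and leaving out each library, plus, chosen after seeing the data, leaving out each set and the block within 2 groups. Nothing says that the sets are from separate cell stocks, so p-values measure the spread between these samples.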

Additional observations from a re-analysis of the deposited data

Results flagged for a closer look

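In 5 of 27 combinations of a member and a group, a single library lay far from the other 3 by Dixon's criterion for 4 values. Its nominal rate of about 1 in 20 is for independent, normally distributed values, which CPM of genes from the same libraries need not be. The share over all tested loci was not computed, so the count is a description. All 5 were libraries of set 1. In Eo− library 1, Tbx20 was 3.02 CPM against 0.997 to 1.32 CPM in the others, Tbx1 was 0.357 CPM against 0.131 to 0.137 CPM, Tbx2 was 2.31 CPM against 0.481 to 0.657 CPM, and Tbx4 was 1.40 CPM against 0.141 to 0.284 CPM. In Eo+ library 1, Tbx2 was 8.88 CPM against 0.977 to 2.18 CPM. The 5 blood markers summed to 130 CPM in that Eo− library, where sets 2, 5 and 6 held 7.58 to 15.2 CPM. Their part in these values was not tested.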

How the results depend on the processing

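Over 25 alternative analyses (24 for Tbx1, which was not tested at 1 CPM in 4 libraries), the log2 fold changes of Eomes, T, Tbx6, Tbx20 and Tbx4 in Eo+ vs ESC, of Eomes, Tbx3 and Tbx6 in Eo− vs ESC, and of Eomes, T, Tbx3, Tbx6 and Tbx20 in Eo+ vs Eo− kept their direction and their call. Of 597 values in all, 548 kept direction and call, 18 lost the call, 12 gained it and 19 changed sign. Each sign change was in a value that was not called. For Tbx1 in Eo+ vs ESC the value ran from −0.27 to 0.82 when single libraries were left out, and was −0.22 without set 5 and −0.058 without set 6. For Tbx2 in Eo− vs ESC it ran from −0.61 to 0.16 when single libraries were left out, and was 0.20 with edgeR, 0.15 with DESeq2, 0.093 with the replicate block, 0.043 with the block in the libraries of both groups only, 0.17 without set 2 and 0.037 without set 6. For Tbx20 in Eo− vs ESC it ran from −0.28 to 0.40 when single libraries were left out, and was −0.22 without set 1 and −0.11 without set 6. The cause was not tested. The replicate block raised the number of members called in Eo+ vs Eo− from 5 to 7 (Tbx2 and Tbx4), while calls over all loci went from 47.7% to 53.3%, and changed no other member's call. Calls of Tbx2 in Eo+ vs ESC, of T in Eo− vs ESC and of Tbx4 in Eo− vs ESC are the ones that depended on a single library or tool. Without a filter Tbx5 had log2 fold changes of 1.30 (Eo+ against ESC), −3.46 (Eo− against ESC) and 4.76 (Eo+ against Eo−) (adjusted p = 0.0388, 0.00643 and 0.000975, limma). With 1 to 16 counts per Eo− library, the Eo− values of Tbx5 rest on few counts.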
